A study of Mus musculus with 2 samples.

Results

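Mir139 is a miRNA gene in an intron of Pde2a, a gene for a cyclic nucleotide phosphodiesterase, and it was among the more abundant miRNA genes of the mouse adrenal gland. It was taken as the row of both count tables whose Ensembl identifier carries the symbol Mir139 in GENCODE M21, which is 1 of 2202 miRNA genes. The gene was chosen by its level and rank in these libraries, so both are given as a description with no test. The series holds 1 group with 2 replicates, made as microRNA sequencing libraries from total RNA of the adrenal gland of C57BL/6J mice, an inbred strain, with inserts below 30 nt. No treatment, transgene or other allele is named, and 1 label describes the tissue as WT and male although sex is elsewhere marked not collected. Age and stage are marked unknown. The replicates have separate biosample records but share 1 donor record, so separate animals are not established and p-values measure only a spread that may be technical.

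An intronic miRNA can be made from the transcript of its host gene or from a promoter of its own. The hairpin is cut out of the transcript in the nucleus, its loop is removed in the cytoplasm, and one arm is loaded into an Argonaute protein, where the seed, bases 2 to 8 of the mature miRNA, pairs with target mRNAs. PDE2A, the product of the host gene, breaks down cAMP and cGMP and is stimulated by cGMP. In the adrenal gland it is known from the zona glomerulosa, the aldosterone-producing outer layer of the cortex, where cGMP made in response to atrial natriuretic peptide lowers cAMP through it. In human tumour cells miR-139-5p, the mature miRNA of the 5′ arm, is known to repress the mRNAs of the kinase ROCK2 and the growth factor receptor IGF1R. No mRNA was measured here, so neither Pde2a nor any target has a value.

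The hairpin and its mature miRNAs are shown because they decide which reads could be counted for Mir139 and which other miRNAs could be mistaken for it. They are RefSeq sequences on build GRCm38.p6, read 5′ to 3′ on the plus strand. The hairpin lies at chr7:101475376-101475443, with both mature miRNAs in capitals. In the mature miRNAs the capitals mark the seed. In mmu-miR-6397, from another locus, they mark bases 2 to 7, which are the same as in mmu-miR-139-3p.
Mir139 hairpin: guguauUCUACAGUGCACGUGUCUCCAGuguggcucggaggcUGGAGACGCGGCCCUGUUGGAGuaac
mmu-miR-139-5p: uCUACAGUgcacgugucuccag
mmu-miR-139-3p: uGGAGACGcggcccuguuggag
mmu-miR-6397: uGGAGACuuucaguggaguga

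The hairpin is 68 nt long with a GC content of 58.8%, and its RefSeq and GENCODE sequences are identical. Both mature miRNAs are 22 nt long, and 14 nt lie between them. The arm miR-139-5p takes bases 7 to 28 of the hairpin and has a GC content of 54.5%, and miR-139-3p takes bases 43 to 64 and has a GC content of 68.2%. In the predicted minimum free energy fold (-35.6 kcal/mol) the hairpin held 25 base pairs, of which 19 joined bases of one mature arm to bases of the other. Of the 7 seed bases, 6 were paired in the 5′ arm and 7 in the 3′ arm. This is a computed structure and not a measurement.

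Mir139 had no near copy among the counted genes. The longest stretch that its hairpin shared with any of the other 2201 hairpins, on either strand, was 11 nt. By comparison, 1087 of the 2202 genes had 20 nt in common with some other locus. No stretch of 18 nt of either mature miRNA was found in a transcript of another gene among 141767 annotated transcripts, and a stretch of 16 nt was found in transcripts of 1 other gene, Prdm12. Introns and intergenic sequence were not part of that search. Among 1738 mature miRNAs from 1058 genes in the RefSeq table, which matched 1018 of the counted genes by symbol and is not complete, none from another gene had the seed of miR-139-5p or of miR-139-3p. The match of bases 2 to 7 in Mir6397 had no count in either replicate. The tables count reads per hairpin, so the levels below hold both arms together, and the share of miR-139-5p is unknown.

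Mir139 (ENSMUSG00000065446.1) lies on the strand of Pde2a (ENSMUSG00000110195.1), which spans chr7:101421691-101512827 on mm10. Of 12 annotated Pde2a transcripts, 10 span the hairpin and none has an exon that overlaps it. In the 4 protein-coding transcripts among them, Mir139 lies in intron 2, which is 29902 bp long, at 23908 bp after the end of exon 2 and 5928 bp before exon 3. In the other 6 it lies in intron 1, 2 or 3. The next exon begins at the same place, 5928 bp downstream, in all 10. The transcripts start at 9 different positions between 14432 and 53685 bp upstream of Mir139, so the hairpin is downstream of each of these annotated starts. A second protein-coding gene of the annotation, Gm45837 (ENSMUSG00000030653.17), spans chr7:101410886-101512819 on the same strand, and its sole spanning transcript carries Mir139 in intron 3.

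**Figure D1:**
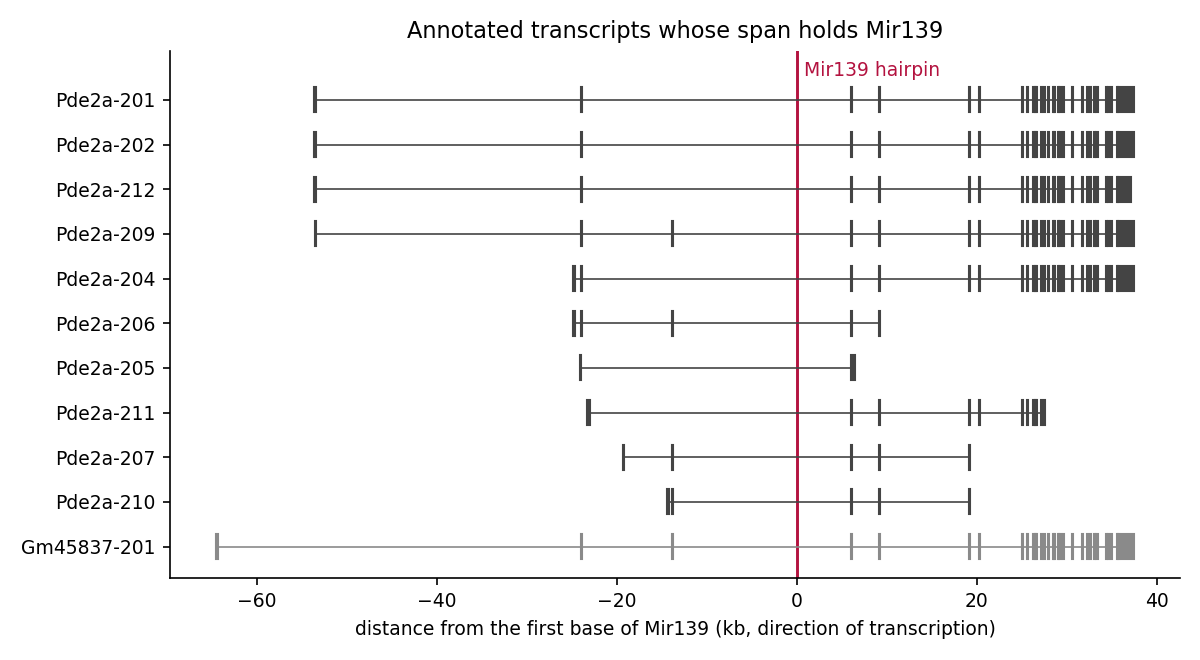
Annotated transcripts that span Mir139, drawn as exons (boxes) joined by lines, against the distance in kb from the first base of Mir139 in the direction of transcription. The hairpin (red line) overlaps no exon, and the next exon downstream is 5928 bp away in every Pde2a transcript shown.

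Mir139 stood alone on its stretch of chromosome 7. No other miRNA gene lay within 10 kb on the same strand. The nearest on the upstream side was Mir3102, within Arhgef17 on the opposite strand and 593 kb away, with 308 CPM in replicate 1, against 200 CPM in replicate 2 (CPM, counts scaled to a total of 1000000 over all miRNA genes). Next came Mir326, within Arrb1 and 1.92 Mb upstream, with 63.8 CPM in replicate 1, against 48.8 CPM in replicate 2. Both neighbours were lower than Mir139 by at least an order of magnitude in each library. On the downstream side the nearest was Gm22655, 406 kb away, with no count in either replicate. It has 20 nt in common with 61 other genes, so its count of 0 sets no limit on its level.

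The libraries differed in depth and in mapping. Replicate 1 held 20598186 reads with 10263894 counts assigned to miRNA genes (49.8%), and replicate 2 held 10628898 reads with 3525666 counts assigned (33.2%). The unmapped share was 13.8% in replicate 1, against 41.4% in replicate 2. Erythroid markers differed most of the marker lists, with 8370 CPM in replicate 1, against 1814 CPM in replicate 2 over Mir451a, Mir144 and Mir486. Mir451a made up most of this, with 8085 CPM in replicate 1, against 1685 CPM in replicate 2. In whole tissue, fewer cells of a type and less RNA per cell cannot be told apart. No miRNA that marks the adrenal gland alone was among the lists. The neuroendocrine miRNA genes Mir375, Mir7-1, Mir7-2 and Mir7b, which the adrenal medulla is known to express, were all detected and summed to 73420 and 80086 CPM. Skeletal and cardiac muscle miRNA genes summed to 3.51 and 4.82 CPM, with 6 of 8 at a count of 0, and 4 of these 6 have 20 nt in common with another locus.

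Mir139 had 184409 counts in replicate 1 and 87864 counts in replicate 2. As a share of assigned counts this was 1.80% in replicate 1, with a Wilson 95% interval from 1.79% to 1.80%, and 2.49% in replicate 2, with an interval from 2.48% to 2.51%. Only counting error enters these intervals, which take each read as independent. The counts do not separate PCR copies from independent molecules, so the intervals may be too narrow. As computed, the intervals of the replicates do not overlap. The mean was 21444 ± 4918 CPM, or 2.14% ± 0.49 of counts (SD, n = 2), a coefficient of variation of 22.9%. Per read of the library, unmapped reads included, the mean was 0.861% ± 0.049.

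Every read counted for Mir139 lay on its own strand. On the opposite strand the count was 0 in both replicates, which allows up to 3 counts, or 0.00163% of the sense count in replicate 1 and 0.00341% in replicate 2. The count without regard to strand equalled the sense count in both libraries. Mir139 thus lost no read to an overlapping gene in that column.

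Mir139 ranked 14 by mean level, with rank 14 in replicate 1 and rank 12 in replicate 2. The genes down to and including Mir139 held 71.6% of assigned counts in replicate 1 and 68.7% in replicate 2. A level of 10 CPM in each replicate was required to call a gene detected, which 267 genes reached. Mir139 was 88.4-fold above the median detected gene in replicate 1 and 111-fold in replicate 2. Multimapping reads, 32.6% of reads in replicate 1 and 22.7% in replicate 2, were assigned to no gene. Genes that share sequence with another locus can lose reads this way, while Mir139 had no near copy among the counted genes. The share, rank and fold of Mir139 may thus be raised by the way reads were counted, which was not tested.

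**Figure D2:**
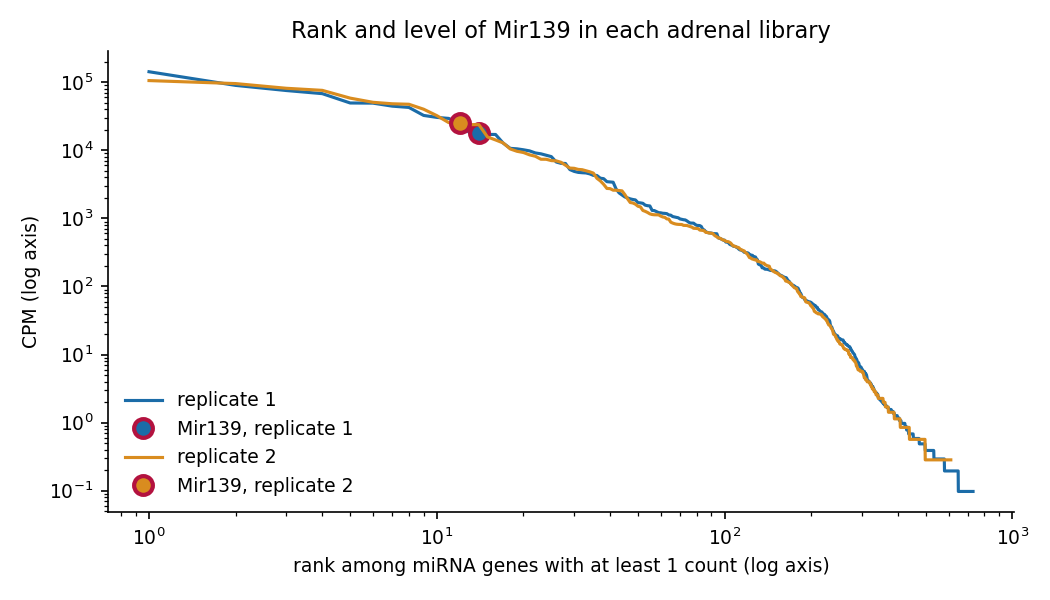
Level in CPM (log axis) against rank (log axis) for every miRNA gene with at least 1 count, as a line for each replicate, with Mir139 as the outlined points. Mir139 sits at rank 14 with 17967 CPM in replicate 1 and at rank 12 with 24921 CPM in replicate 2, near the top of both curves.

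The order of Mir139 among its neighbours was not fixed by these data. Of the 5 genes directly above it by mean level, 4 had replicate ranges that overlapped the range of Mir139, which ran from 17967 to 24921 CPM. Mir143, the smooth muscle miRNA gene, had 24738 CPM in replicate 1, against 25539 CPM in replicate 2, and was above Mir139 in each library. Mir10b, of the Hoxd region, had 29421 CPM in replicate 1, against 23835 CPM in replicate 2, so it was above Mir139 in replicate 1 and below it in replicate 2. Mirlet7d showed the same crossing, with 30470 and 23864 CPM. Mir26b, which lies within the phosphatase gene Ctdsp1, crossed the other way, with 17093 CPM in replicate 1, against 40184 CPM in replicate 2. Mirlet7i was the sole one of the 5 whose range, 44571 and 32337 CPM, lay wholly above.

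The genes directly below Mir139 by mean level lay well below it in replicate 2, but Mir127 and Mir322 were close to it in replicate 1. Mir127, an imprinted miRNA gene of the Dlk1-Dio3 region, had 18069 CPM in replicate 1, against 14209 CPM in replicate 2, and was just above Mir139 in replicate 1 alone. Mir322, of an X chromosome cluster, had 17149 and 15718 CPM and lay below Mir139 in both libraries. Mir411 (12790 and 12843 CPM), Mirlet7e (10688 and 9676 CPM) and Mir379 (10514 and 9287 CPM) were lower still, with ranges that did not reach that of Mir139. Differences in rank were not tested.

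**Figure D3:**
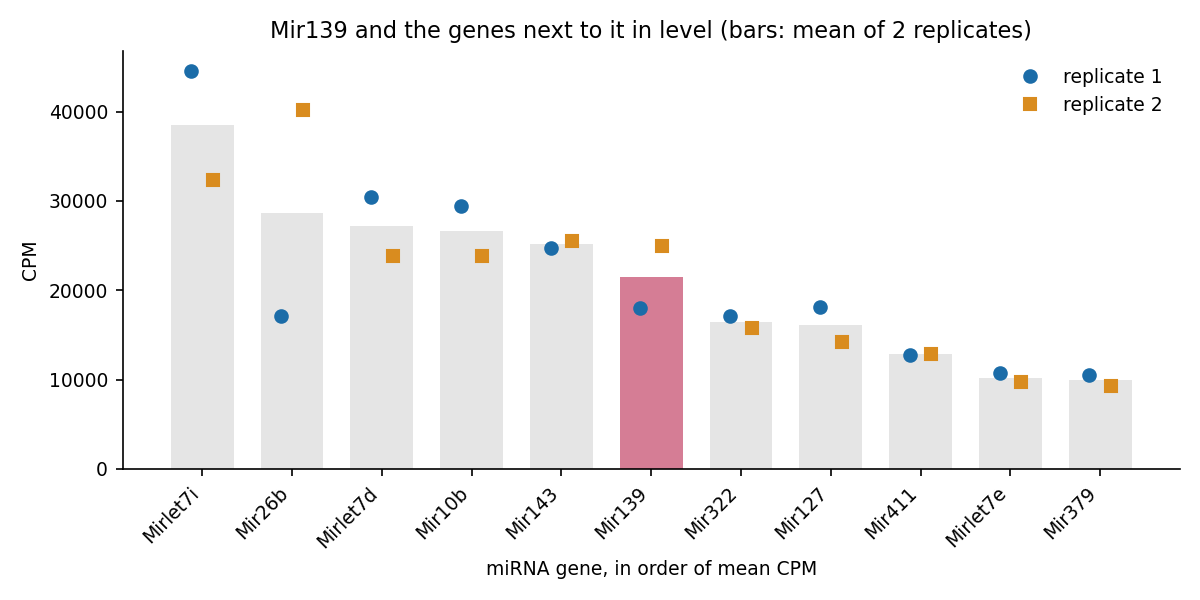
CPM of Mir139 (red bar) and of the 5 genes above and 5 below it by mean level, with bars for the mean of 2 replicates and a point for each replicate. The range of Mir139, 17967 to 24921 CPM, overlaps that of Mir26b, Mirlet7d, Mir10b, Mir143 and Mir127.

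The genes with the most similar pair of levels were Mir143, Mir322, Mir26b, Mir10b and Mirlet7d, in that order. Likeness was the Euclidean distance in log2 CPM over the 2 libraries, among 573 other genes with a count in both. The distance was 0.46 for Mir143, 0.67 for Mir322, 0.69 for Mir26b, 0.71 for Mir10b and 0.76 for Mirlet7d. The replicates of Mir139 itself lay -0.47 apart in log2 CPM, replicate 1 over replicate 2. A likeness over 2 libraries of 1 tissue mostly reflects mean level.

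Mir139 was 1 of the leading miRNA genes carried by protein-coding hosts. Of the 2202 genes, 969 lie wholly inside a protein-coding gene on its strand, and 111 of these were detected. Together they held 46.2% of counts in replicate 1 and 45.2% in replicate 2. Mir139 held 3.89% of that share in replicate 1 and 5.51% in replicate 2, a mean of 4.70% ± 1.14 (SD, n = 2). It stood at rank 5 in each library and at rank 6 by mean, since Mir26b was below it in replicate 1 and Mir10b below it in replicate 2.

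By mean level the hosted genes above Mir139 were Mirlet7g within Wdr82, Mir126a within the endothelial gene Egfl7, Mir23b, Mir26b and Mir10b. Mir23b lies within 2010111I01Rik and shares a stretch of 20 nt with another locus, so its level is uncertain. Below Mir139 came Mirlet7e and Mir99b within Spaca6, Mir22 within Tlcd2 and Mir652 within Tmem164. Mirlet7e, the next hosted gene, had 10688 CPM in replicate 1, against 9676 CPM in replicate 2, and both values were below both values of Mir139. Among the 25 most abundant miRNA genes, 7 lay in a protein-coding host, had no other miRNA gene within 10 kb on the same strand and shared no stretch of 20 nt with another locus. These were Mirlet7g, Mir126a, Mir26b, Mir10b, Mir139, Mir22 and Mir652, a set picked after the levels were known.

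Other miRNA genes hosted by genes with names of cyclic nucleotide signalling were near or at 0. The search of host symbols found 7 miRNA genes, of which Mir139 alone was detected, and it held 99.996% of their summed CPM. Most miRNA genes were likewise not detected, with 267 detected of all 2202. Mir139 was chosen by its level, so its high share of this list follows in part from that choice. Mir582, within the cAMP phosphodiesterase gene Pde4d, had 2 counts (0.195 CPM) in replicate 1 and 4 counts (1.13 CPM) in replicate 2. Mir7672, within Pde12, had 0 counts in replicate 1 and 1 count in replicate 2. Mir1904 within Pde4d, Mir7225 within Pde4dip, Mir7010 within the guanylyl cyclase subunit gene Gucy1a1 and Gm44413 within Pde1c had no count in either replicate. A count of 0 allows up to 0.292 CPM in replicate 1, against 0.851 CPM in replicate 2, and none of these 4 has 20 nt in common with another locus. The name search is broad, since Pde12 acts on RNA and Pde4dip encodes a scaffold protein. The median over the 7 genes was 0 CPM, as it was over all 2202 genes.

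Mir139 was lower in replicate 1 than in replicate 2 as a share of assigned or mapped reads, though not per read of the library. With 17967 CPM in replicate 1, against 24921 CPM in replicate 2, the log2 ratio of replicate 1 over replicate 2 was -0.45 after TMM scaling, with an exact 95% interval from -0.47 to -0.44, a difference of 1.37-fold. By an exact two-sided binomial test with Benjamini-Hochberg adjustment over 443 genes, the adjusted p was too small for double precision and was returned as 0. The test compares 2 libraries and asks whether they differ by more than counting noise. Of all genes tested, 52.8% passed it, and 21.2% passed as lower in replicate 1, so the call does not set Mir139 apart. It is 1 of 57 genes called among the 60 with at least 1000 CPM in both libraries.

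In size the difference of Mir139 was above the middle of abundant genes but not extreme. Among those 60 genes the median difference was 1.25-fold, and 15 genes differed by more than Mir139. Only 7 of the 60 were lower in replicate 1 by more than Mir139. Over all genes tested the median log2 ratio was 0.17, and the log2 ratio of Mir139 minus this median was -0.62. In all, 82 of 443 genes had a lower ratio. Genes in protein-coding hosts had a median log2 ratio of 0.21 and 37 of 111 detected genes below 0. Over all 267 detected genes the median was 0.13 and 107 lay below 0.

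Markers of several cell types also differed between the libraries, and their part in the difference of Mir139 was not tested. The neuronal list summed to 672 CPM in replicate 1, against 1013 CPM in replicate 2, with 3 of 10 members detected. Its defining members Mir124a-1, Mir124a-2, Mir124a-3, Mir9-1 and Mir9-2 were at 0, and each of them has 20 nt in common with another locus. Mir137, its leading member, had a log2 ratio of -0.45. The ratios of the other detected members were -1.34 for Mir153 and -1.12 for Mir128-1. The leukocyte list summed to 681 CPM in replicate 1, against 984 CPM in replicate 2, with all 4 members detected and a log2 ratio of -0.45 for Mir142, -0.94 for Mir150, -1.57 for Mir223 and 0.69 for Mir155.

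The summed endothelial, smooth muscle and neuroendocrine lists had ratios nearer to 0, each set mainly by 1 member. List ratios were taken from summed CPM without TMM scaling, and member ratios after it. The endothelial list, nearly all Mir126a, had 89917 CPM in replicate 1, against 95595 CPM in replicate 2, a log2 ratio of -0.09. Smooth muscle markers Mir143 and Mir145a summed to 25619 and 26619 CPM, most of it Mir143. The neuroendocrine sum had a log2 ratio of -0.13 and was mostly Mir375 (-0.14). Its other members lay apart, at 0.43 for Mir7b, 0.95 for Mir7-1 and -0.39 for Mir7-2. Mir7-1 and Mir7-2 each have 20 nt in common with another locus, so their levels are uncertain. The liver miRNA gene Mir122 had 104 and 97.6 CPM, and the epithelial mir-200 list summed to 48.6 and 43.1 CPM. Only the erythroid list was far higher in replicate 1, with a log2 ratio of 2.21. It was mostly Mir451a (2.28), with 1.20 for Mir144. Mir486 had 0.41, with an adjusted p of 0.216 by the exact binomial test.

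**Figure D4:**
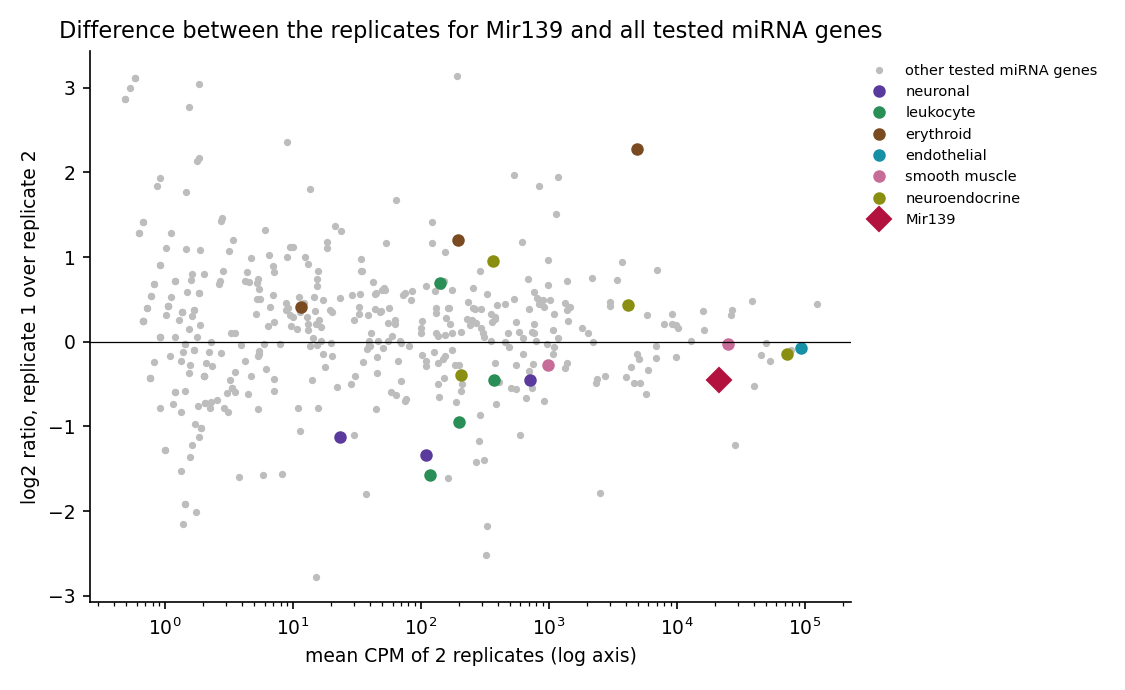
Log2 ratio of replicate 1 over replicate 2 against mean CPM (log axis) for the 443 tested miRNA genes, with marker lists in colour and Mir139 as the red diamond. Mir139 lies at -0.45, on the lower side of abundant genes, and 2 of the 25 most abundant genes have a lower ratio. The erythroid marker Mir451a lies at 2.28.

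The direction of the difference depended on the total that counts were divided by. Per uniquely mapped read, Mir139 took 1.67% in replicate 1 and 2.31% in replicate 2. Per mapped read, multimapping reads included, it took 1.04% in replicate 1 and 1.41% in replicate 2. Per read of the library, unmapped reads included, it took 0.895% in replicate 1 and 0.827% in replicate 2, and the log2 ratio turned to 0.12 with an adjusted p of 2.66e-84 by the exact binomial test. This last total moved the ratio of every gene by 0.57, and the median over all genes tested became 0.73, which leaves the log2 ratio of Mir139 minus the median at -0.62 under each total.

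**Figure D5:**
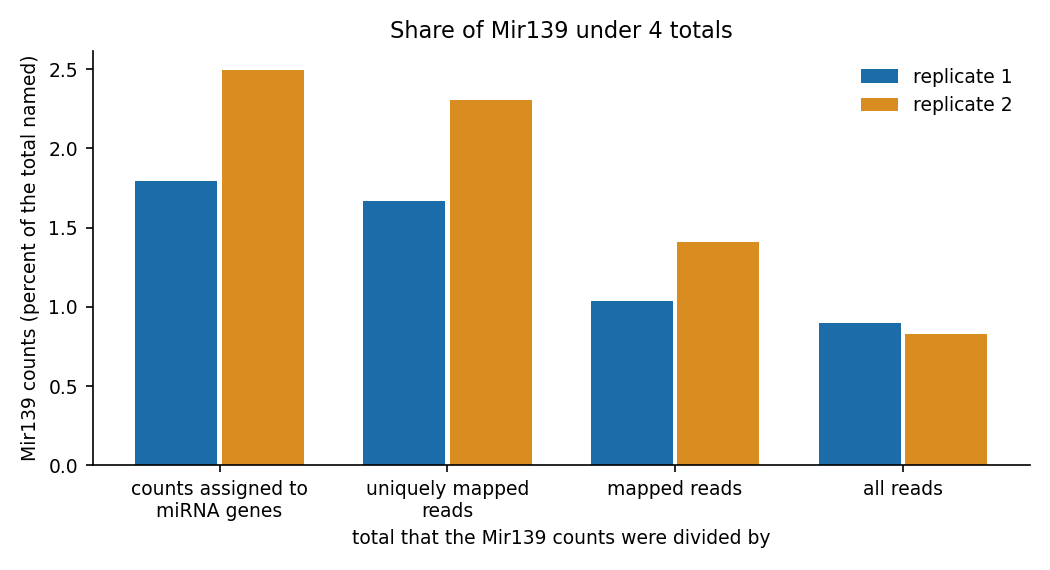
Mir139 counts as a percent of 4 totals in replicate 1 (blue) and replicate 2 (orange), with the totals on the horizontal axis and bars that start at 0. Replicate 1 is lower under the totals of mapped or assigned reads, with 1.80% against 2.49% of assigned counts, and higher per read of the library, with 0.895% against 0.827%.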

How the data were processed

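MicroRNA sequencing counts were analysed from 2 adrenal gland replicates. The authors deposited 1 table of raw counts per library, in 3 columns without a header. They were read as unstranded, sense and antisense counts, in that order, from their sums and from their lines of ambiguous reads. Description files beside the tables name build mm10 and GENCODE M21, and adapter trimming is linked in the labels' protocols. No source used here names the aligner or counter. The 4 summary lines (unmapped, multimapping, no feature, ambiguous) entered neither library sizes nor tests. They make up 50.2% of the reads of replicate 1 and 66.8% of those of replicate 2.

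Symbols, positions and hosts came from GENCODE M21, where all 2202 identifiers were found. Stretches of 20 nt were compared between hairpins on both strands. TMM factors came from edgeR 4.0.16 and size factors from DESeq2 1.42.0 under R 4.3.3. The exact binomial test used genes with 10 or more counts in the sum of the replicates and a threshold of 0.05. Ratios of single genes had 0.5 counts added, and ratios of summed marker lists had 1 CPM added without TMM scaling. The binomial test was checked on counts simulated with known fold changes and counting noise alone. That check does not cover further variation between libraries. Python 3.11.15, numpy 2.4.6, scipy 1.17.1, pandas 2.3.3, matplotlib 3.10.9 and ViennaRNA 2.7.2 were used. Named genes were Mir139, 5 genes on each side of it by mean level, the 5 nearest in log2 CPM, the 10 leading genes in protein-coding hosts, all genes in hosts named for cyclic nucleotide signalling, genes that share a seed and the marker lists. Prdm12, Mir6397 and the chromosome neighbours were named outside this rule. The gene, lists and tests were chosen with earlier results of these data known. With 1 group, no condition was compared.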

Additional observations from a re-analysis of the deposited data

How the results depend on the processing

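Leaving out a replicate gave 1.80% to 2.49% for the level of Mir139, 12 to 14 for its rank and 3.89% to 5.51% for its share among genes in protein-coding hosts. Beyond the replicate SD, the level moved to 0.861% per read of the library, 1.22% per mapped read and 3.70% with the 5 most abundant genes taken out of the total, each by construction. The rank was 12 among genes that share no stretch of 20 nt. Leaving genes out can only keep or improve a rank, and it restores no multimapping read. The share among hosted genes was 3.26% with hosts of any type and 6.18% with counts without regard to strand. In the column without regard to strand, Mir126a had 12 and 4 counts, against sense counts of 922889 and 337036. Mirlet7e had 0 there, against 109700 and 34113. The total behind 6.18% thus lacks nearly all counts of these hosted genes. The log2 ratio between replicates reversed to 0.12 (adjusted p 2.66e-84, exact binomial test) per read of the library, which adds the unmapped reads. Under the other 7 alternatives it ran from -0.53 to -0.44, with every adjusted p returned as 0. Genes called numbered 206 to 305 under 8 alternatives, against 234 of 443, but the number tested also changed. It was 226 of 767 with no filter on low counts and 222 of 293 with at least 100 counts. Counts without regard to strand gave 206 of 418, and the total of all reads gave 305 of 443. The share called was thus not stable. The totals of mapped reads, and of all reads for the replicate ratio, were tried after the data had been seen. No paired analysis was possible because the series has 1 group. With 2 libraries from 1 donor record, the spread between animals is unknown. With reads taken as independent, counting error is small at these depths.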
